A study of Mus musculus with 6 samples.

Results

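The reader proteins of DNA methylation recognise methylated or hydroxymethylated CpG sites and bring chromatin enzymes to them. Genes were chosen by name for this role or for a methyl-CpG binding domain. The 9 genes were Mbd1, Mbd2, Mbd3, Mbd4, Mbd5, Mbd6, Zbtb4, Zbtb38 and Uhrf2. All are called readers below, and whether each protein binds methylated CpG was not tested. The array annotation gave 8 of them a row that names the gene alone, and each of these 8 had 1 such row. Mbd5 had no such row and was not analysed here. The 8 genes stand among 17858 genes in all, and they were named by role or domain, with earlier results of these data known.

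The samples were cerebellum of C57BL/6 mice at P7 (7 days after birth, 3 arrays) and at 6wk (6 weeks of age, 3 arrays), with no treatment and no altered allele named in the labels, and sex not given. Total RNA depleted of ribosomal RNA was hybridised to mouse exon arrays from Affymetrix, with probe sets in a gene's separate exons, and the series asks which expression changes go with changes in 5-hydroxymethylcytosine. Values are the deposited log2 levels, in which a step of 1 is a 2-fold change, and levels of different genes cannot be set against each other because each row has its own probes. The labels do not say whether replicates were separate animals, so the tests measure the spread between these arrays, which may in part be technical, and the number of arrays limits the precision.

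The MBD family shares a methyl-CpG binding domain. MBD2 and MBD3 are alternative subunits of the NuRD complex, which joins histone deacetylases to CHD remodelling ATPases, and mammalian MBD3 binds methylated CpG only weakly. MBD1 works with the H3K9 methyltransferase SETDB1, MBD4 is a glycosylase that removes thymine or uracil mispaired at CpG sites, and MBD5 and MBD6 associate with the PR-DUB deubiquitinase complex. ZBTB4 and ZBTB38 read methylated DNA through zinc fingers instead, and UHRF2, a relative of the maintenance factor UHRF1, holds an SRA domain that can bind 5-hydroxymethylcytosine. Neurons are known for high levels of 5-hydroxymethylcytosine, and the postnatal cerebellum is where granule neuron progenitors stop dividing and mature.

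P7 replicate 2 stood apart: across all 23750 rows its correlation was 0.952 with P7 replicate 1 and 0.977 with replicate 3, against 0.984 to 0.989 among the 6wk arrays (across rows, which are not independent). Genes of aminergic neurons in neighbouring midbrain and pons (6 of 6 listed, among them Slc6a3 and Tph2) had a mean log2 level of 6.58 in P7 replicate 1, 9.69 in replicate 2, 9.09 in replicate 3 and 6.72 to 7.58 at 6wk. In the same P7 order, 5 of 6 listed mature granule neuron markers averaged 9.50, 6.45 and 8.75, and 7 of 8 dividing-cell markers 9.57, 7.36 and 8.99. At 6wk these lists averaged 10.92 to 11.17 and 5.41 to 5.45. The P7 arrays thus differed among themselves in markers of several cell types, and values without P7 replicate 2 stand beside those from all arrays. Those values are not free of the aminergic signal, since P7 replicate 3, which they keep, read 9.09 for it. Eif2s3y, a Y-linked gene, read 10.49 in 6wk replicate 1 and 5.42 to 5.66 in the other 5 arrays, so 6wk replicate 1 did not carry the same RNA as 6wk replicates 2 and 3, and the 6wk group was mixed for this Y-linked signal. In bulk tissue, fewer cells of a type and less RNA per cell cannot be told apart.

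Among the readers, Zbtb4 was the single gene that passed the test between the ages, and it rose. The other 7 genes lay within a log2 difference of -0.12 to 0.38, and none of them passed. The count of 1 in 8 stands beside the background, where limma called 21.7% of 17858 genes at a Benjamini-Hochberg adjusted p under 0.05, and 8.26% were called higher at 6wk. The median absolute log2 difference was 0.16 over the 8 readers and 0.22 over all genes, and the median signed difference was 0.11 against -0.05. Without P7 replicate 2, 3 of 8 readers were called (Zbtb4 and Zbtb38 higher, Mbd6 lower), where 26.8% of all genes were, so with so few readers neither count sets them apart from genes in general.

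Zbtb4, a zinc-finger and BTB-domain repressor that binds methylated CpG, read 9.22, 9.46 and 9.35 at P7 and 10.12, 10.21 and 10.15 at 6wk. All 3 6wk arrays lay above all 3 P7 arrays, with a gap between the groups wider than the range of either. The mean went from 9.34 ± 0.12 (SD, n = 3) to 10.16 ± 0.05 (SD, n = 3), a 1.76-fold rise (log2 difference 0.82, SE 0.09, 95% interval 0.59 to 1.04, limma adjusted p = 0.00264). P7 replicate 2 was the highest of the P7 arrays, so leaving it out made the difference larger, at 0.88 (limma adjusted p = 0.00189). In each of the 6 fits that left out an array Zbtb4 was called, with differences from 0.76 to 0.88 and limma adjusted p up to 0.0217.

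Zbtb38, the closest relative of Zbtb4 among the readers, read 8.58, 9.002 and 8.67 at P7 and 8.93, 9.13 and 9.06 at 6wk. The groups overlapped through P7 replicate 2 alone, which exceeded the lowest 6wk array. The log2 difference of 0.29 (SE 0.13, 95% interval -0.03 to 0.61) did not pass (limma adjusted p = 0.175). Without P7 replicate 2 Zbtb38 rose by 0.42 (limma adjusted p = 0.0270), a 1.33-fold change, and in the fits without any other single array the adjusted p reached 0.390. Zbtb38 and Zbtb4 were the readers whose P7 replicate 2 lay above P7 replicate 1, by 0.42 and 0.24, in the direction of the neighbouring-tissue markers. What part those cells have in these values was not tested.

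The sequences before the start sites of these relatives are shown because Zbtb4 carries the call and Zbtb38 is its nearest comparison. They are the 250 bases before RefSeq starts in build GRCm38.p6, written 5′ to 3′ on the gene's strand with every CpG, the dinucleotide that methylation marks, in capitals. Zbtb4 has 1 start in the table (chr11:69765662-69765911, plus strand), and of 3 Zbtb38 starts the first in the table's order (chr9:96731676-96731925) and the second (chr9:96719851-96720100, both minus strand) are given.
Zbtb4: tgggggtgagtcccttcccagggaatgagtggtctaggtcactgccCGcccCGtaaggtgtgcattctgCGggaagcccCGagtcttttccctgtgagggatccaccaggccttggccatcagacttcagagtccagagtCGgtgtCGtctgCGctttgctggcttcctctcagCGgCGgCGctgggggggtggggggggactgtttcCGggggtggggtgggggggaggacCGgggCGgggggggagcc
Zbtb38 first start: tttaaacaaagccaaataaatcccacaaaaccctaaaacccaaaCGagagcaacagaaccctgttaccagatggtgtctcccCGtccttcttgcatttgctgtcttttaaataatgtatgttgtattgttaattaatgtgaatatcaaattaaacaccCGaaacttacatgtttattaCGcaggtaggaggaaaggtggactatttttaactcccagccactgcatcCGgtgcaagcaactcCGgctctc
Zbtb38 second start: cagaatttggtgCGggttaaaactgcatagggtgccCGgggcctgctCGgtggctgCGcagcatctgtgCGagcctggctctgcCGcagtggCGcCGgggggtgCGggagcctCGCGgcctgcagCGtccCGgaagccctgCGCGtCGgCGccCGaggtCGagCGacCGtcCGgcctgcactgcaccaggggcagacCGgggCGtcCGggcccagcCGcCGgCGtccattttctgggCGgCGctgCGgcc
The Zbtb4 window held 13 CpGs, a number that 31.5% of the 32851 windows in the table reach. The Zbtb38 windows held 6 and 31, and 23 at the third start, so its starts range from the table's median of 6 to a number that 5.19% of windows reach. Zbtb38 had 1 row naming it alone, whose values do not say which of its starts was used. RefSeq windows were found for 6 of the 8 readers, with 14 CpGs for Mbd3, 22 for Mbd4, 23 for Uhrf2, and 17 and 32 for the overlapping windows of Mbd6. The sequence TCCTGCNA, bound by the ZBTB33 relative of these proteins, was searched on both strands and occurred in 0 of these 9 windows and in 4.03% of all windows, which describes these letters in these windows and nothing about binding.

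**Figure D1:**
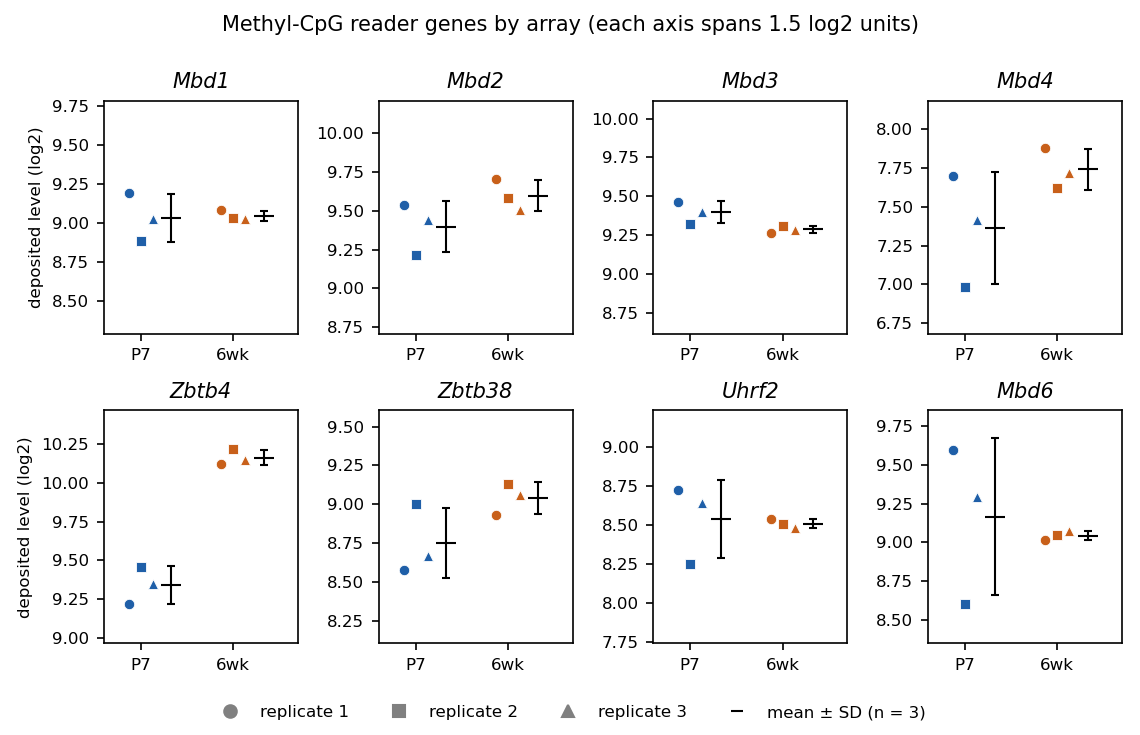
Deposited log2 level of each reader gene (vertical axis, spanning 1.5 log2 units in every panel) in the 3 P7 arrays (blue) and the 3 6wk arrays (orange), with the symbol giving the replicate and black bars the mean ± SD. Zbtb4 is the panel with clearly separated groups, and in Mbd6, Mbd4 and Uhrf2 the P7 arrays spread widely with replicate 2 lowest.

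Neither of the NuRD readers Mbd2 and Mbd3 passed the test. Mbd2 read 9.53, 9.21 and 9.44 at P7 and 9.70, 9.58 and 9.50 at 6wk. P7 replicate 1 overlapped the 6wk arrays, and the log2 difference of 0.20 (SE 0.11, 95% interval -0.07 to 0.47) did not pass (limma adjusted p = 0.265; 0.11 without P7 replicate 2). Mbd3 read 9.47, 9.32 and 9.40 at P7 and 9.26, 9.31 and 9.28 at 6wk. Its groups did not overlap, but P7 replicate 2 and 6wk replicate 2 nearly met, and the difference of -0.11 (SE 0.08, 95% interval -0.30 to 0.08) did not pass (limma adjusted p = 0.383; -0.15 without P7 replicate 2). Groups without overlap were seen in 2 of 8 readers, Zbtb4 and Mbd3, and in 42.1% of all genes.

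Because any scaling of a whole array cancels between genes of the same array, readers were also compared in pairs, by the difference of their log2 values within each array. Only the change of such a difference between the ages has a meaning, not its level. For Mbd2 minus Mbd3 the difference was 0.07, -0.11 and 0.04 at P7 and 0.44, 0.27 and 0.22 at 6wk. Every 6wk array lay above every P7 array, by 0.31 between the means and by 0.25 without P7 replicate 2, so Mbd2 stood higher relative to Mbd3 at 6wk in these arrays. The exact two-sided permutation test gave p = 0.10, the smallest that 3 against 3 arrays allow. Zbtb4 minus Zbtb38 was 0.64, 0.46 and 0.68 at P7 and 1.19, 1.08 and 1.09 at 6wk, again without overlap and with means 0.53 apart (0.46 without P7 replicate 2, exact permutation p = 0.10). Of the 28 pairs of readers, 13 had groups that did not overlap, 6 of them pairs with Zbtb4. Groups without overlap were seen in 42.1% of single genes, and the share over pairs of genes in general was not computed. Without that share, and with pairs that have genes in common, the count of 13 cannot say whether the readers stand apart. The exact p of 0.10 became 0.215 after Benjamini-Hochberg adjustment over the 28 pairs, and the pairs described above were chosen after the values were seen.

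**Figure D2:**
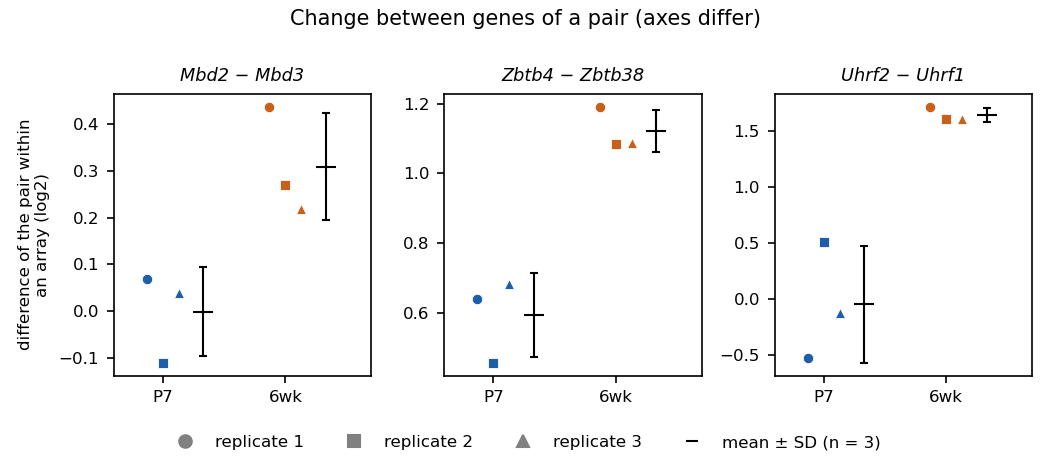
Difference of 2 genes' log2 levels within each array (vertical axis, own scale in each panel) at P7 (blue) and 6wk (orange), with black bars for the mean ± SD over 3 arrays. In all 3 pairs every 6wk array lies above every P7 array: the means differ by 0.31 for Mbd2 minus Mbd3, 0.53 for Zbtb4 minus Zbtb38 and 1.69 for Uhrf2 minus Uhrf1.

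Mbd1, whose protein carries CXXC zinc fingers beside its methyl-CpG binding domain, read 9.19, 8.88 and 9.02 at P7 and 9.08, 9.03 and 9.02 at 6wk. The 6wk arrays sat inside the P7 range, and the log2 difference was 0.01 (SE 0.10, 95% interval -0.23 to 0.26, limma adjusted p = 0.943; -0.06 without P7 replicate 2). Uhrf2, the ubiquitin ligase with the SRA domain, read 8.73, 8.25 and 8.64 at P7 and 8.54, 8.51 and 8.48 at 6wk. Its 6wk arrays also lay inside the P7 range, with a difference of -0.03 (SE 0.14, 95% interval -0.36 to 0.30, limma adjusted p = 0.904; -0.17 without P7 replicate 2), and the sign turned with centring of each array on its median (0.07). The 95% intervals of Mbd1, Mbd2, Mbd3 and Uhrf2 all lay within a 1.5-fold change in either direction, which bounds the changes these arrays allow for them.

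Mbd4, the glycosylase, read 7.70, 6.98 and 7.41 at P7 and 7.88, 7.62 and 7.72 at 6wk. P7 replicate 1 overlapped the 6wk group, P7 replicate 2 was lowest and just under that array's first quartile (7.03), and the log2 difference of 0.38 (SE 0.19, 95% interval -0.08 to 0.83) did not pass (limma adjusted p = 0.209). Without P7 replicate 2 the difference was 0.19 (95% interval -0.13 to 0.50, limma adjusted p = 0.345). Mbd6 read 9.59, 8.61 and 9.29 at P7 and 9.01, 9.05 and 9.07 at 6wk. The P7 arrays lay on either side of the tight 6wk group, so the mean difference with all arrays was -0.12 (SE 0.24, 95% interval -0.70 to 0.46, limma adjusted p = 0.765). Without P7 replicate 2 Mbd6 fell by 0.40 (limma adjusted p = 0.0477), and without P7 replicate 1 the difference was 0.09, so a direction for Mbd6 rested on which P7 array was kept.

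**Figure D3:**
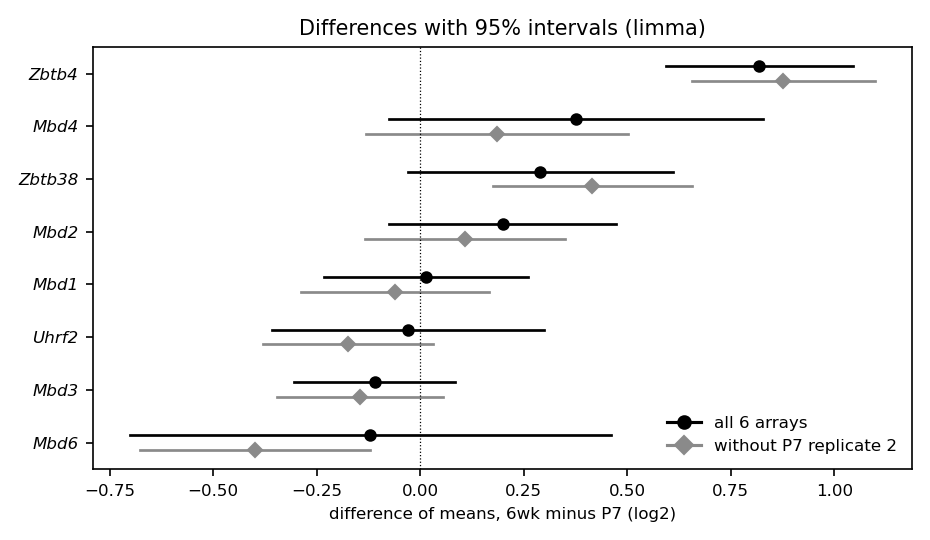
Log2 difference of means, 6wk minus P7 (horizontal axis), for each reader with its 95% limma interval, from all 6 arrays (black circles) and without P7 replicate 2 (grey diamonds). The Zbtb4 interval lies above 0 in both fits, from 0.59 to 1.04 with all arrays, while those of Zbtb38 and Mbd6 leave 0 without P7 replicate 2.

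The readers spread more at P7 than at 6wk, with P7 ranges from 0.14 for Mbd3 to 0.99 for Mbd6. In 8 of 8 the SD over the P7 arrays exceeded that over the 6wk arrays, as it did in 70.2% of all genes, and in 8 of 8 P7 replicate 3 lay between replicates 1 and 2, as in 67.6% of all genes. P7 replicate 2 was below P7 replicate 1 in 6 of 8 readers and in 48.2% of all genes. These 6 were lower by 0.99 for Mbd6, 0.71 for Mbd4, 0.47 for Uhrf2, 0.32 for Mbd2, 0.31 for Mbd1 and 0.14 for Mbd3. The dividing-cell and granule neuron markers were also lower in P7 replicate 2 (medians of -2.36 and -3.38 against replicate 1), and their part in these values was not tested.

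The genes whose 6 values ran most like those of Zbtb4 were Hspa4l, Negr1 and Synj2, each with r above 0.999 over 6 arrays, and 1014 of 9958 genes had r over 0.9 with it. Hspa4l, an HSP110-family chaperone, Negr1, a neuronal adhesion molecule, and Synj2, an inositol phosphatase, differed by 0.78, 0.94 and 0.96. The genes most like Mbd6 were Cdc7, a kinase that starts DNA replication, Clic1, an intracellular chloride channel protein, and Cog1, of the Golgi COG complex, with r of 0.998, 0.996 and 0.995. Their differences were -0.09, -0.22 and -0.12, so for Mbd6 the likeness follows the order of the P7 arrays. An r over 0.9 with Mbd6 was seen in 441 of 9958 genes. With 2 age groups such correlations mostly reflect the group means or the P7 spread.

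Partner genes of the readers were called in the downward direction. Of 46 measured partner genes in 6 lists taken from textbook knowledge, 15 fell and 0 rose, against 13.4% of all genes called lower. The median log2 difference was -0.35 over the partners, -0.05 over all genes and 0.11 over the readers. After centring each array on its median, 10 partners fell and 1 rose (9.54% of all genes lower), with medians of -0.25, 0.04 and 0.20 in the same order. The calls lost by this centring were Hdac2, Dnmt1, Hells, Ehmt2 and Ogg1, with limma adjusted p from 0.0503 to 0.132. Without P7 replicate 2, 26 partners fell (17.2% of all genes), and without P7 replicate 1, 12 did (16.3% of all genes). Without P7 replicate 3 or any 6wk array 5 or 6 partners fell, where 5.4% to 7.02% of all genes were called lower.

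In the NuRD complex 2 of 13 subunits fell and 0 rose, a count near the 13.4% of all genes called lower. Chd3, a remodelling ATPase of the complex, read 9.79, 10.03 and 9.86 at P7 and 8.89, 9.04 and 9.08 at 6wk, well apart. It fell by 0.89 on the log2 scale (SE 0.10, limma adjusted p = 0.00275) and was called in all 6 fits that left out an array. Hdac2, a catalytic deacetylase, read 10.18, 9.28 and 9.91 at P7 and 9.05, 8.97 and 8.90 at 6wk, with P7 replicate 2 close to the 6wk group. It fell by 0.82 (SE 0.22, limma adjusted p = 0.0459), and its call was lost after median centring (-0.72, adjusted p = 0.0618) and in 5 of the 6 fits without an array, among them that without P7 replicate 3 (0.147). Its partner deacetylase Hdac1 differed by -0.46 (limma adjusted p = 0.102; -0.64 and 0.00881 without P7 replicate 2). Chd4, the main remodelling ATPase of NuRD, differed by -0.24 (limma adjusted p = 0.335; -0.40 and 0.0365 without P7 replicate 2). Chd5, the neuronal form, ranged from 7.56 to 9.24 at P7 and differed by -0.64 (limma adjusted p = 0.315). That difference was -0.25 without P7 replicate 2 (adjusted p = 0.607) and -1.09 without P7 replicate 1 (0.0224). Without P7 replicate 2, 8 of 13 subunits were called lower, where 17.2% of all genes were.

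PR-DUB genes, the partners of Mbd6, fell in 4 of 8 measured members and rose in 0, beside 13.4% of all genes called lower. Asxl3, an ASXL scaffold of the complex, read 9.46, 9.56 and 9.45 at P7 and 7.65, 8.20 and 7.97 at 6wk. Its groups lay far apart, with a fall of 1.55 on the log2 scale, or 2.93-fold (SE 0.15, limma adjusted p = 0.00159), called in all 6 fits that left out an array. Foxk2, a forkhead factor that recruits the complex, fell by 0.60 (limma adjusted p = 0.00516). Kdm1b, a histone demethylase listed with them, fell by 0.62 (limma adjusted p = 0.0280), a call absent in 4 of the 6 fits without an array (up to 0.102). The remaining call, named after its value was seen, was Asxl1 (-0.45, limma adjusted p = 0.0185). Bap1, the deubiquitinase itself, differed by -0.04 (limma adjusted p = 0.740).

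UHRF1, which reads hemimethylated DNA behind the replication fork and brings in the maintenance methyltransferase DNMT1, is the closest relative of UHRF2. Uhrf1 read 9.25, 7.74 and 8.77 at P7 and 6.83, 6.90 and 6.88 at 6wk, with all P7 arrays above the 6wk arrays and P7 replicate 2 nearest to them. It fell by 1.72 on the log2 scale (SE 0.36, limma adjusted p = 0.0188; -2.14 and 0.000767 without P7 replicate 2), but passed in only 2 of the 6 fits without an array (up to 0.0762 in the others, those lacking P7 replicate 3 or a 6wk array). Uhrf2 minus Uhrf1 was -0.52, 0.51 and -0.13 at P7 and 1.71, 1.60 and 1.60 at 6wk, a change of 1.69 with no overlap (1.97 without P7 replicate 2, exact permutation p = 0.10, the smallest possible). Of the 6 genes of its list 4 fell and 0 rose, beside 13.4% of all genes called lower. Besides Uhrf1 these were Lig1, the replicative DNA ligase (-0.85, limma adjusted p = 0.00154), Hells, a remodeller needed for DNA methylation (-1.57, limma adjusted p = 0.0448), and Dnmt1 (-0.42, limma adjusted p = 0.0441). The calls of Hells and Dnmt1 were each lost in 5 of the 6 fits without an array, with adjusted p up to 0.140 and 0.134. The 6wk means of Uhrf1 (6.87) and Hells (5.51) were under the lowest of the arrays' first quartiles (6.89), where background was not analysed here, so the sizes of these falls are uncertain. All 7 measured dividing-cell markers also fell (median -3.29), and their part in this list was not tested.

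In each of the other lists 1 or 2 genes were called, all lower, beside 13.4% of all genes called lower. Of 9 measured H3K9 methylation genes around Mbd1, Cbx5, which encodes the heterochromatin protein HP1 alpha, fell by 0.57 (limma adjusted p = 0.00506), as did Ehmt2, the methyltransferase G9a, by 0.35 (limma adjusted p = 0.0439; lost in 5 of 6 fits without an array, up to 0.158). Setdb1, named after its value was seen, differed by -0.20 (limma adjusted p = 0.182). Of 7 measured repair genes around Mbd4, Apex1, the endonuclease that cuts at the abasic site a glycosylase leaves, fell by 0.75 (limma adjusted p = 0.0133; lost without P7 replicate 3 or 6wk replicate 3, up to 0.0608). Ogg1, the 8-oxoguanine glycosylase, fell by 0.30 (limma adjusted p = 0.0420; lost in all 6 fits without an array, 0.0588 to 0.139). Of 3 measured corepressor genes Hdac3 fell by 0.38 (limma adjusted p = 0.0176), lost in 4 of 6 fits without an array (up to 0.0906).

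**Figure D4:**
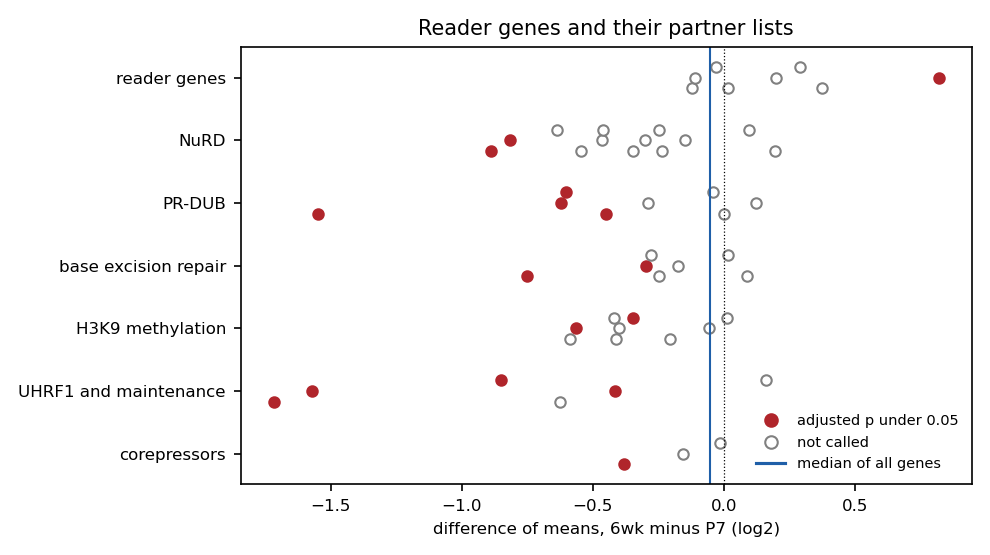
Log2 difference of means, 6wk minus P7 (horizontal axis), for each measured gene of the reader set and of 6 partner lists, with filled red points for limma adjusted p under 0.05, open points for genes not called and the blue line at the median of all genes (-0.05). The 15 filled points in the partner lists all lie below 0, and the single filled reader, Zbtb4, lies at 0.82.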

How the data were processed

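Per the labels, total RNA of C57BL/6 cerebellum was hybridised to Affymetrix exon arrays. The authors deposited log2 values for 23750 rows and 6 arrays. RMA, Affymetrix Power Tools and genome mm9 are named, without tool versions, in the submitters' processing notes. Any filter was not given in the sources used here, nor was the sequence of steps. Array medians ranged from 7.82 to 7.97.

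Symbols came from an annotation table of the array: 18463 rows have 1 gene symbol, 1799 several and 3488 none. A RefSeq gene table (GRCm38.p6) changed 0 symbols. Of several rows of a gene the one with the highest mean was kept, which left 17858 genes. All were fitted with limma 3.58.1 (lmFit, eBayes, R 4.3.3) for 6wk minus P7, two-sided, without a block. Genes with a Benjamini-Hochberg adjusted p under 0.05 over all genes were called. Intervals are 95% limma intervals. The steps were tested on simulated data.

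Members, lists, alternatives and naming rule were chosen with earlier results of these data known. The rule names every member, 7 fixed partner genes (Chd3, Chd4, Chd5, Hdac1, Hdac2, Uhrf1 and Dnmt1), up to 3 called rises and 3 called falls per partner list, and the 3 genes most correlated with the members of the largest rise and fall, among genes with an SD of at least 0.2. Of 55 partner genes 9 had no row of their own. Marker lists of Purkinje cells, choroid plexus, oligodendrocytes, microglia, astrocytes, endothelium and blood gave 3, 0, 2, 0, 1, 0 and 0 genes higher and 0, 1, 0, 0, 3, 3 and 0 lower of 5, 5, 4, 4, 5, 4 and 1 measured. Those of granule progenitors gave 0 and 2 of 7, of mature granule neurons 3 and 0 of 5, and of neighbouring tissue 0 and 0 of 6.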

Additional observations from a re-analysis of the deposited data

How the results depend on the processing

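Zbtb4 was called in each of 13 other fits, with differences from 0.76 to 0.94 and limma adjusted p up to 0.0217. Its exact permutation p was 0.10, the smallest 3 against 3 arrays can give. The number of readers called was 1 in the fit of record (21.7% of all genes) and 1 to 3 on leaving out an array (9.22% to 26.8% of all genes). It was 3 with array weights (adding Zbtb38 and Mbd4), where 49.6% of all genes were called. With P7 replicate 1 alone at P7, where no spread at P7 is measured, the Mbd6 difference was -0.55. Called partner genes numbered 15 of 46, and 5 to 26 on leaving out an array. They numbered 9 with the replicate number as a block (18.3% of all genes) and 35 with array weights (49.6% of all genes). With P7 replicate 1 alone the median partner difference was -0.49. Over all genes 3870 were called (1475 higher, 2395 lower). Leaving out an array gave 1647 to 4781 (682 to 1788 higher, 965 to 3073 lower), and array weights gave 8858 (3339 higher, 5519 lower). The array weights put 6.69 on P7 replicate 3 against 0.34 and 0.26 on replicates 1 and 2, so that fit rests on 1 P7 array. Calls higher at 6wk were 38.1% of the total with the deposited scaling, 55.2% after median centring and 54.6% after a further quantile normalization. Signs turned in some fits for Mbd1, Uhrf2 and Mbd6, whose differences with all arrays were 0.01, -0.03 and -0.12. The sign also turned for Chd5, at -0.64 with all arrays. Mbd1 ran from -0.061 to 0.093 on leaving out an array and was -0.15 with P7 replicate 1 alone. Uhrf2 ran from -0.17 to 0.064 and was 0.068 after median centring and 0.067 after quantile normalization. Mbd6 ran from -0.40 to 0.094, and Chd5 was 0.27 with P7 replicate 1 alone. The cause was not tested. Same-numbered arrays deviated together with correlations of 0.27, 0.14 and -0.06 across genes, which does not meet the criterion of over 0.1 in every pair, so the numbers were not used as pairs. With the replicate block 1199 genes were called higher and 2074 lower. No reader had several rows, so alternatives on the choice of row were not run. Each exon's own values were not analysed here, and 1 value for a whole gene can hide a change in 1 exon.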
